A study of Rattus norvegicus with 24 samples.

Results

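Cd8a, Cd8b and Ccr7 are genes of T lymphocytes, and their levels were followed in rat mesenteric arteries, the small arteries that supply the gut. The 3 genes were taken from 6455 genes with a symbol because they were selected on their measured log2 differences for estradiol benzoate minus vehicle and testosterone minus vehicle. Those differences are therefore given as a description without a test. Each gene had 1 probe among 10399 on the array, and all 3 probes were among the 10228 tested, for which each group had 3 or more animals with a value.

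The study used 12 ovariectomised female Sprague Dawley rats, that is, rats whose ovaries had been removed, with 4 rats in each of 3 groups. One group received estradiol benzoate, an injectable ester of the main estrogen, at 0.15 mg per kg per day. The next received testosterone, the main androgen, which tissues can convert to estradiol, at 1 mg per kg per day. The vehicle group received sesame oil. All rats were ovariectomised at 3 weeks of age, recovered for 2 weeks, were injected into the peritoneum for 4 days and were 5.5 weeks old. The vehicle rats thus lacked ovaries as well, and intact rats were not analysed here. The arteries were dissected away from fat, veins and connective tissue, and the RNA of the whole preparation was measured, so no cell type was sorted. The cRNA of each rat was hybridised to a pair of one-colour CodeLink oligonucleotide arrays, labelled AA and AB, giving 24 arrays. Each animal keeps its number from the labels.

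CD8 is the coreceptor of cytotoxic T cells. Its alpha chain (Cd8a) forms pairs with itself or with the beta chain (Cd8b), and the pair binds MHC class I molecules on a target cell while bringing the kinase Lck to the T cell receptor. Pairs of alpha chains alone also occur on natural killer cells and on some dendritic cells, whereas the beta chain is more closely tied to T cells. CCR7 is a chemokine receptor that guides naive T cells, central memory T cells and mature dendritic cells towards its ligands CCL19 and CCL21 in lymph nodes. Cd8a and Cd8b lie next to each other on rat chromosome 4, with 1 gene, the pseudogene Tuba1b-ps8, between them in the RefSeq gene order, while Ccr7 lies on chromosome 10.

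The promoter of Cd8a is shown because both treatments act through nuclear hormone receptors, which bind DNA. It was the only one of the 3 promoters in the RefSeq table used here. The window runs from 250 bases before the gene start to 50 bases after the start (GRCr8, chr4:104923866-104924165, plus strand), and capitals mark the match described next.
Cd8a promoter: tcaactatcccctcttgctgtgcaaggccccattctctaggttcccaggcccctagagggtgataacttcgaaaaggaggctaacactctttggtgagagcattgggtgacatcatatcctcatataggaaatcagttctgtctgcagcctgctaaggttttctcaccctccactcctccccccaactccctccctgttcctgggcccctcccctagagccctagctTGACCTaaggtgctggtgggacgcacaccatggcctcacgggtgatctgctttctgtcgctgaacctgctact

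Of 8 motifs searched on both strands, 1 had a match in this window. It was AGGTCA, one arm of the estrogen response element, found on the minus strand 23 bases before the gene start. The same letters occurred in 16.2% of 33469 rat promoters of that length, so the match is common. The full estrogen response element and the full androgen response element had no match, and occurred in 0.0269% and 0.0149% of the promoters. The RUNX motif TGTGGT (17.3% of promoters), the ETS motif CCGGAA (15%), the GATA motif AGATAA (11.6%), the E box CACCTG (18.8%) and the AP-1 motif TGANTCA (7.33%) had none either. A match or its absence in these letters says nothing about binding in these arteries.

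The deposited intensities are linear and are scaled to an array median of 0.926 to 0.951. On that scale the 3 probes were dim. Over the 12 animals, 9.97% of the tested probes were dimmer than Cd8a, 12.8% were dimmer than Cd8b and 6.34% were dimmer than Ccr7. The intensities on single arrays spanned 0.0118 to 0.0698 for Cd8a (22 of 24 arrays with a value), 0.0298 to 0.0936 for Cd8b (23 arrays) and 0.0041 to 0.0629 for Ccr7 (24 arrays). The lowest 1% of the values on an array lay below about 0.0065 and the lowest 5% below about 0.0165 (medians over arrays), so some Ccr7 values in vehicle rats were within the dimmest few percent. The values came without background flags, and whether a dim probe was above background could not be decided.

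Cd8a, the alpha chain, had the highest levels in the estradiol benzoate group. Its intensity was 0.0531, 0.0536, 0.0649 and 0.0505 in estradiol benzoate animals 2, 3, 5 and 8. It was 0.0511, 0.052, 0.0599 and 0.0398 in testosterone animals 2, 4, 6 and 8. It was 0.0296, 0.0342, 0.016 and 0.0402 in vehicle animals 3, 4, 5 and 8. The value of vehicle animal 3 came from array AA alone, because its array AB was blank. All 4 estradiol benzoate animals were above every vehicle animal, while testosterone animal 8 lay just below vehicle animal 8, the highest of its group. Vehicle animal 5 was far below the other vehicle animals. The difference in log2 level was 0.96 ± 0.24 for estradiol benzoate minus vehicle (SE, n = 4 each, 95% interval 0.43 to 1.49), a 1.94-fold difference. For testosterone minus vehicle it was 0.82 ± 0.24 (interval 0.29 to 1.35), or 1.77-fold.

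Cd8b, the beta chain that defines the cytotoxic T cell form of the coreceptor, showed a smaller difference in the same direction. Its intensity was 0.0747, 0.0767, 0.0927 and 0.0668 in estradiol benzoate animals 2, 3, 5 and 8. It was 0.0566, 0.0851, 0.0817 and 0.0764 in testosterone animals 2, 4, 6 and 8. It was 0.055, 0.0559, 0.0378 and 0.0569 in vehicle animals 3, 4, 5 and 8. Again no estradiol benzoate animal overlapped the vehicle group, and testosterone animal 2 was the one hormone-treated rat within the vehicle range. The log2 difference was 0.61 ± 0.17 for estradiol benzoate minus vehicle (interval 0.24 to 0.98), or 1.52-fold, and 0.55 ± 0.17 for testosterone minus vehicle (interval 0.18 to 0.92), or 1.46-fold.

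Ccr7, the lymph node homing receptor, was highest in the testosterone group. Its intensity was 0.027, 0.0136, 0.0303 and 0.0195 in estradiol benzoate animals 2, 3, 5 and 8. It was 0.0239, 0.0394, 0.0263 and 0.02 in testosterone animals 2, 4, 6 and 8. It was 0.0124, 0.00827, 0.0119 and 0.0133 in vehicle animals 3, 4, 5 and 8. Neither hormone group overlapped the vehicle group, although estradiol benzoate animal 3 was only just above vehicle animal 8. The log2 difference was 0.93 ± 0.27 for estradiol benzoate minus vehicle (interval 0.34 to 1.52), or 1.90-fold, and 1.23 ± 0.27 for testosterone minus vehicle (interval 0.64 to 1.82), or 2.34-fold.

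**Figure D1:**
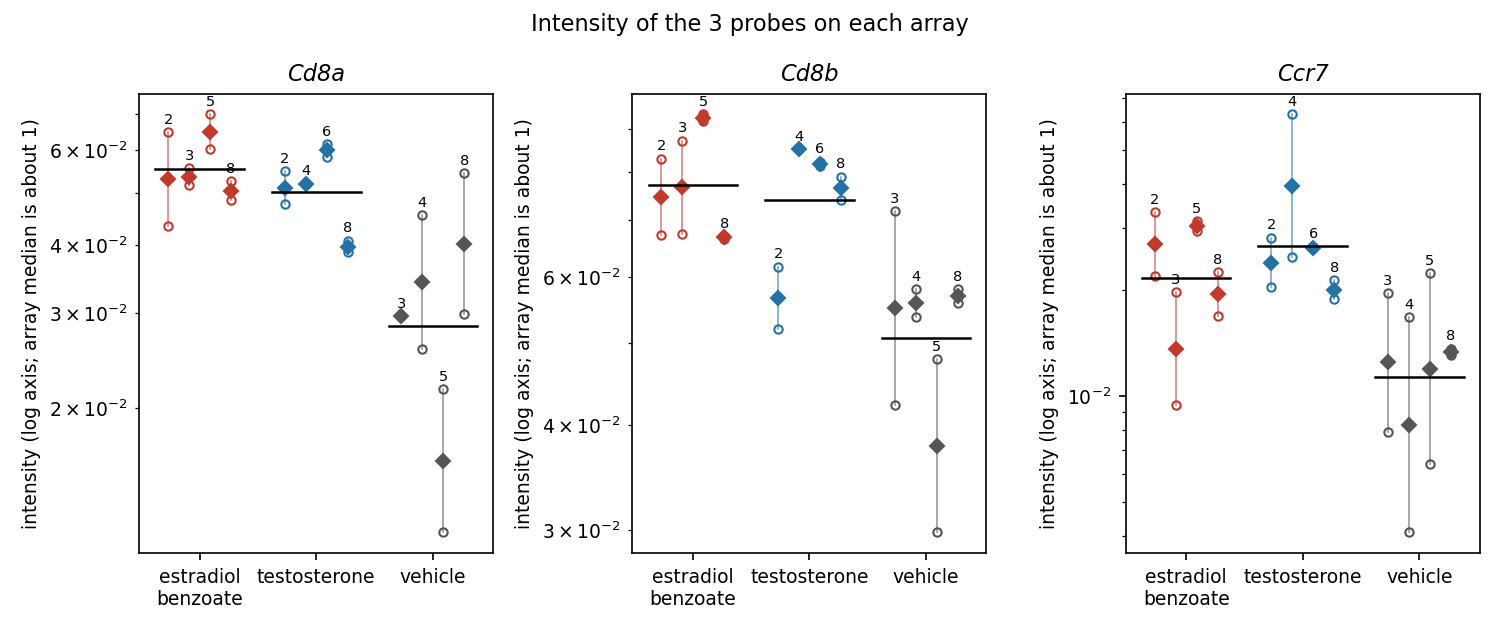
Intensity of the Cd8a, Cd8b and Ccr7 probes (vertical log axes, array median about 0.93) in the estradiol benzoate, testosterone and vehicle groups. Open circles are single arrays, diamonds are animals (geometric mean of their arrays, numbered as in the labels) and bars are group means of the diamonds. All 4 estradiol benzoate diamonds lie above the vehicle diamonds for each gene, while single arrays of a vehicle animal can lie far apart.

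The arrays of one animal carried the same cRNA but gave different values, most of all for Ccr7. The SD of single arrays within an animal was 0.36 on the log2 scale for Cd8a, 0.25 for Cd8b and 0.73 for Ccr7. The SD between animals of a group was 0.38, 0.25 and 0.42 for the same genes. The SD between animals was taken on the averages of arrays AA and AB, which vary less than single arrays. The 2 kinds of SD are therefore not directly comparable as printed. For Ccr7 the SD of single arrays is so large that averaging 2 arrays does not bring it below the SD between animals. The Ccr7 levels of single animals within a group were thus not told apart beyond array differences. For Cd8a and Cd8b such averaging does bring it below. The arrays of vehicle animal 4 gave 0.0167 (AA) and 0.0041 (AB) for Ccr7, a 4.07-fold gap and the widest of the 12 pairs. Testosterone animal 4 had the highest Ccr7 level through its array AB (0.0629, against 0.0247 on array AA), and that array had blank spots for Cd8a and Cd8b. Without it, the log2 difference of Ccr7 for testosterone minus vehicle was 1.06. For Cd8a the AA arrays alone gave a log2 difference of 1.32 for estradiol benzoate minus vehicle and the AB arrays alone gave 0.51. For testosterone minus vehicle, Cd8a gave 1.12 on the AA arrays and 0.43 on the AB arrays. In vehicle animals 4, 5 and 8 array AB gave 0.0455, 0.0217 and 0.0543 for Cd8a, against 0.0257, 0.0118 and 0.0298 on array AA. Vehicle animal 3 had a Cd8a value on array AA only, the array that read lower in the other vehicle animals. In hormone-treated rats with both arrays the Cd8a values lay closer together.

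Vehicle animal 5 had the lowest Cd8a and Cd8b levels of all 12 rats. Without it, the log2 difference of Cd8a was 0.68 for estradiol benzoate minus vehicle and 0.54 for testosterone minus vehicle, and that of Cd8b was 0.46 for estradiol benzoate and 0.41 for testosterone. Ccr7 differed by 0.96 (estradiol benzoate) and 1.26 (testosterone) without that animal. The same animal also held the most signal from liver genes. The intensities of 9 hepatocyte genes summed to 35.5 in vehicle animal 5, against 2.21 to 6.87 in the other vehicle animals, 2.40 to 2.64 in estradiol benzoate animals and 2.01 to 2.47 in testosterone animals. Estradiol benzoate animal 3, with the lowest Ccr7 level of its group, held the most signal from pancreas genes, where 11 acinar genes summed to 115 against 0.663 to 5.53 in the other estradiol benzoate animals, 0.551 to 2.57 in testosterone animals and 0.637 to 1.36 in vehicle animals. Without these 2 animals the log2 differences for estradiol benzoate minus vehicle were 0.70 for Cd8a, 0.47 for Cd8b and 1.18 for Ccr7, and those for testosterone minus vehicle were 0.54, 0.41 and 1.26 in that gene order. The part of liver or pancreas tissue in these levels was not tested.

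Differences of this size were less rare among dim probes than among bright ones. No probe of 10228 passed an adjusted p of 0.05 (limma, Benjamini-Hochberg) for estradiol benzoate minus vehicle, a share of 0%, and 1376 had an unadjusted p under 0.05. For testosterone minus vehicle, 5 probes passed (0.0489%), and 1437 had an unadjusted p under 0.05. Cd8a, Cd8b and Ccr7 were not among the called probes. Of all tested probes, 3.53% were higher in every estradiol benzoate animal than in every vehicle animal, and 2.45% were higher in every testosterone animal than in every vehicle animal. All 3 genes were in the first share and Ccr7 was in the second, but these values chose the genes and nothing is read from the counts. The median log2 difference over all probes was -0.01 in both comparisons.

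When the tested probes were ordered by mean intensity and divided into 20 equal classes, Cd8a and Ccr7 fell into class 2 and Cd8b into class 3. In class 2 the middle 90% of the log2 differences ran from -1.14 to 0.74 for estradiol benzoate minus vehicle and from -1.04 to 0.81 for testosterone minus vehicle. In the brightest class the same range was -0.32 to 0.29 for estradiol benzoate and -0.33 to 0.19 for testosterone. Cd8a and Ccr7 lay above the upper limit of their class in both comparisons, Cd8a with testosterone by little (0.82 against 0.81). Cd8b lay below its limit in both, with 0.61 against a limit of 0.66 for estradiol benzoate and 0.55 against 0.64 for testosterone. These differences chose the genes, so their place within a class is a description and nothing is read from it.

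**Figure D2:**
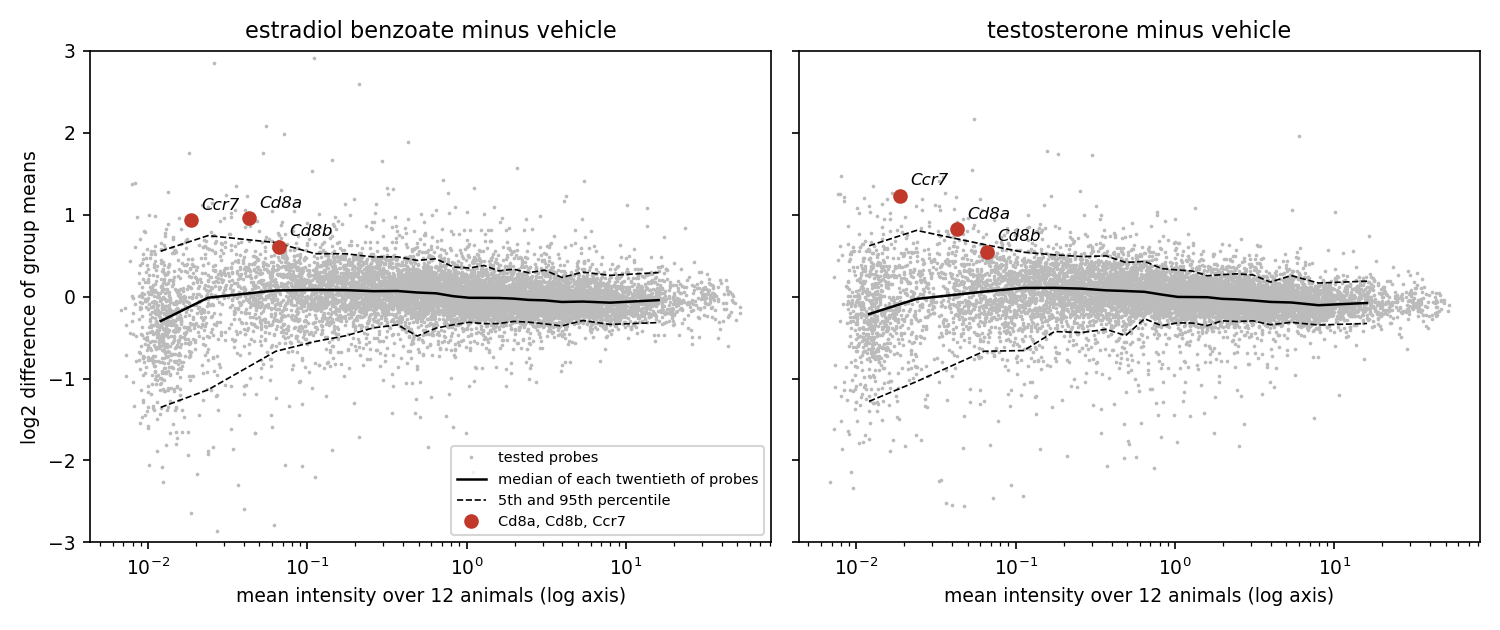
Log2 difference of group means (vertical axes) against mean intensity over the 12 animals (horizontal log axes) for tested probes, as estradiol benzoate minus vehicle and testosterone minus vehicle. The solid line is the median and the dashed lines are the 5th and 95th percentiles of 20 intensity classes, red points are Cd8a, Cd8b and Ccr7, and probes beyond the vertical limits are not drawn. The spread widens towards dim probes. Cd8a and Ccr7 lie above the upper dashed line in both panels, on differences that chose them.

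Estradiol benzoate and testosterone were also set against each other. This difference follows from the 2 differences against vehicle that chose the genes, so it is given as a description without a test. The log2 difference for estradiol benzoate minus testosterone was 0.14 for Cd8a (95% interval -0.39 to 0.67), 0.06 for Cd8b (interval -0.31 to 0.43) and -0.30 for Ccr7 (interval -0.89 to 0.29). Over all probes, 3 of 10228 (0.0293%) passed an adjusted p of 0.05 (limma, two-sided) in this comparison, without the 3 genes, and 422 had an unadjusted p under 0.05. The order of the group means was estradiol benzoate, testosterone, vehicle for both CD8 chains and testosterone, estradiol benzoate, vehicle for Ccr7, and the hormone groups overlapped for every gene. The intervals leave room for differences of up to 1.59-fold for Cd8a, 1.35-fold for Cd8b and, with testosterone higher, down to 0.538-fold for Ccr7. For Cd8b the sign turned without estradiol benzoate animal 5 (-0.03) or testosterone animal 2 (-0.07).

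The animals of a group were then compared among themselves, after the group means had been subtracted, so that the differences that chose the genes took no part. Between Cd8a and Cd8b, the chains of one receptor, Pearson's r over 12 animals was 0.70 (exact permutation within groups, two-sided, p = 0.0503, adjusted p = 0.151 over the 3 pairs). Spearman's rho for that pair was 0.75 (exact permutation p = 0.0122, adjusted p = 0.0365). Vehicle animal 5 was lowest within its group for both chains. Without the 2 animals farthest from the median of Cd8a, vehicle animals 5 and 8, r was 0.38 (exact permutation p = 0.410). Without vehicle animal 5 alone r was 0.36, and without vehicle animal 8 alone r was 0.68. The size of r thus rests mostly on vehicle animal 5. Over the 12 fits that each left out 1 animal, r for the pair ran from 0.36 to 0.89 and the adjusted exact permutation p from 0.00694 to 0.374. It was lowest without vehicle animal 5, and it passed 0.05 without testosterone animal 2 (r = 0.89) or testosterone animal 8 (r = 0.77). Between Cd8a and Cd8b, r was 0.86 on the AA arrays alone, 0.41 on the AB arrays alone, 0.17 when Cd8a came from array AA and Cd8b from array AB, and 0.74 the other way round, a setting chosen after seeing the data.

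Ccr7 did not follow the CD8 chains within groups beyond what permutation gave, but this comparison could easily miss a relation. The SD of Ccr7 was 0.73 between the arrays of an animal and 0.42 between animals of a group. Its deviations within groups were thus no larger than array differences, and no conclusion on Ccr7 is drawn. For Cd8a and Ccr7, r was 0.17 (exact permutation p = 0.539) and rho was 0.19 (p = 0.535 by exact permutation), and r without the 2 farthest animals was 0.37. For Cd8b and Ccr7, r was 0.28 (exact permutation p = 0.385, adjusted 0.539) and rho was 0.46 (exact permutation p = 0.175, adjusted 0.262), and r without the 2 farthest animals was 0.51. With the AB arrays alone r was -0.36 for Cd8a with Ccr7 and -0.02 for Cd8b with Ccr7. When the CD8 chain came from array AA and Ccr7 from array AB, r was -0.14 for Cd8a and -0.05 for Cd8b, and the other way round it was 0.54 and 0.31. The sign of either relation to Ccr7 is therefore not settled by these arrays.

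**Figure D3:**
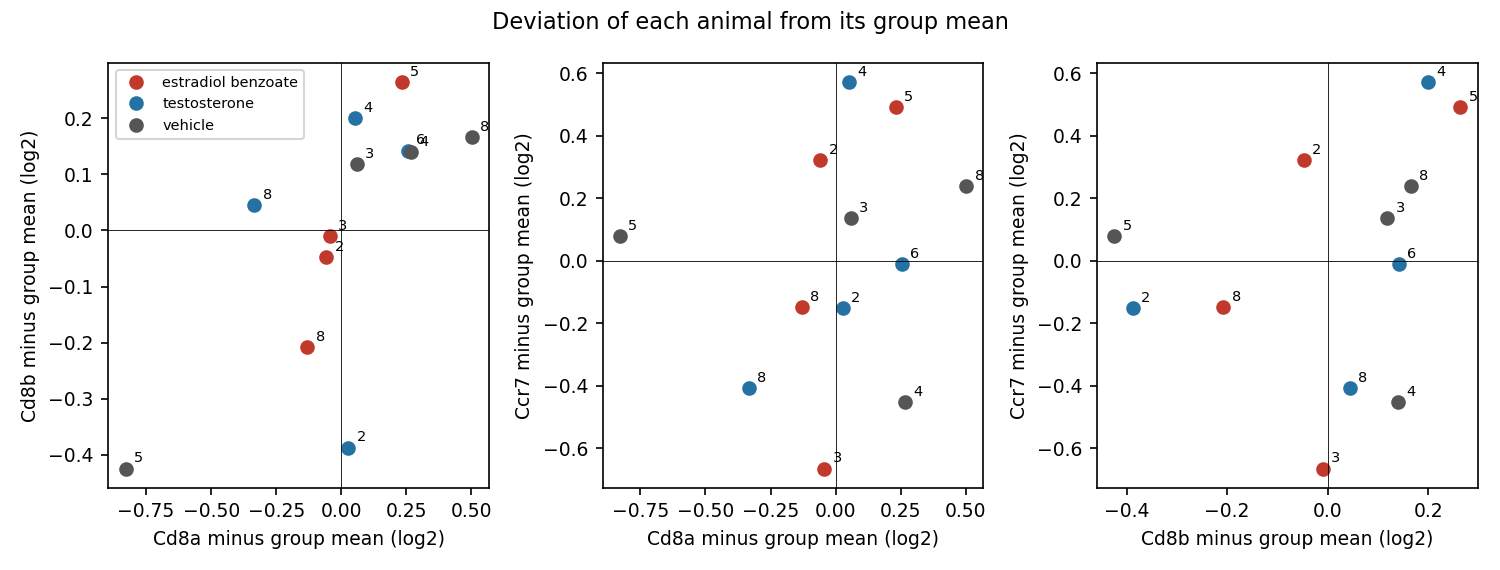
Log2 level of one gene against another in each of 12 animals, after the mean of the animal's group was subtracted from both, for Cd8a with Cd8b, Cd8a with Ccr7 and Cd8b with Ccr7. Points are animals, coloured by group and numbered as in the labels. Vehicle animal 5 stands alone at the low end for both CD8 chains, and the panels with Ccr7 show no clear slope.

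Among 6248 genes with a value in all animals, those most like each gene over the 12 animals were looked up by Pearson's r, which includes the group differences and is a description. For Cd8a they were Gch1 (r = 0.91), the rate-limiting enzyme of tetrahydrobiopterin synthesis, Sit1 (0.89), an adaptor that dampens T cell receptor signals, Tmem171 (0.88), Cd8b (0.88) and Foxe1 (0.88), a forkhead factor of the thyroid. For Cd8b they were Cd8a (0.88), Sit1 (0.88), Cd5 (0.87), a surface protein that restrains T cell receptor signals, Gclm (0.87), a subunit of the enzyme that starts glutathione synthesis, and Pyurf (0.87). Each CD8 chain was thus in the other's first 5, with Sit1 in both. For Ccr7 they were Ggt7 (0.89), Bhlhe40 (0.83), a helix-loop-helix repressor, Olfm1 (0.81), Thada (0.80) and Spata6 (0.79). Cd8b ranked 34 and Cd8a ranked 69 in likeness to Ccr7.

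With group means removed the lists changed. Cd8a was then most like Mllt3 (r = 0.90), Hsd17b6 (0.88), Bmt2 (0.87), Rybp (0.86) and Cdkn1c (0.85), and Cd8b ranked 96. Cd8b was most like Echdc1 (0.92), Elovl5 (0.90), Ptgs2os (0.90), Impa1 (0.88) and Folr1 (0.86), and Cd8a ranked 83. Ccr7 was most like Ggt7 (0.82), Fam162a (0.81), Ryr2 (0.79), St8sia3 (0.78) and Nthl1 (0.78). The deviations of Ccr7 within groups were no larger than the differences between arrays of one animal, so nothing is read from its list. Ggt7 was the one gene found by both measures, and for the CD8 chains no gene was.

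Other genes of the T cell receptor and its signalling were measured by 10 probes of a list of 28, which does not hold the 3 genes above. All 10 had a higher mean in both hormone groups than in the vehicle group, as did 47.6% of all tested probes with estradiol benzoate and 47.7% with testosterone, and 0 passed the adjusted p. The median log2 difference was 0.46 for estradiol benzoate minus vehicle and 0.35 for testosterone minus vehicle. The 10 genes fell within intensity classes 2 to 8, where most class medians were above 0, unlike the median over all probes. Those class medians ran from -0.01 to 0.08 for estradiol benzoate and from -0.03 to 0.11 for testosterone. At an unadjusted p under 0.05, 4 of 10 were higher with estradiol benzoate, where 6.77% of all probes were, and 3 of 10 were higher with testosterone, where 6.62% of all probes were. In the other direction the list had 0, where 6.69% of all probes were lower with estradiol benzoate and 7.43% with testosterone. These genes come from the same animals, and several may come from the same cells, so they are not independent of each other. In this list and every list below, both hormone groups are set against the same vehicle animals, so their agreement is not a repeat. The shares of 47.6% and 47.7% stand beside every count of higher genes below.

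Sit1 had an intensity of 0.0624, 0.0798, 0.0848 and 0.0704 in estradiol benzoate animals 2, 3, 5 and 8, and 0.0626, 0.0783, 0.0652 and 0.0673 in testosterone animals 2, 4, 6 and 8. It had 0.0585, 0.0617, 0.0277 and 0.0547 in vehicle animals 3, 4, 5 and 8. Both hormone groups lay above all vehicle animals, in 2 hormone-treated rats by little, and vehicle animal 5 was again the lowest. The log2 differences of Sit1 were 0.61 ± 0.22 for estradiol benzoate (limma, adjusted p = 0.304) and 0.49 ± 0.22 for testosterone (limma, adjusted p = 0.353), and without vehicle animal 5 they were 0.34 for estradiol benzoate and 0.23 for testosterone. For the other genes, each difference is the log2 level of the hormone group in parentheses minus vehicle. Cd5 differed by 0.63 (estradiol benzoate) and 0.54 (testosterone), the second of which was 0.34 without vehicle animal 5. Cd2, an adhesion receptor of T and natural killer cells, differed by 0.51 (estradiol benzoate) and 0.54 (testosterone). Lat, the adaptor that links the receptor to downstream signals, differed by 0.10 (estradiol benzoate) and 0.20 (testosterone), and by -0.012 and 0.057 on the AA arrays alone.

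Further T cell genes are named after their values were seen, because they define the lineage. Cd3d, a chain of the T cell receptor complex, had 28.5% of the tested probes below it in intensity. It had an intensity of 0.234, 0.278, 0.448 and 0.343 in estradiol benzoate animals 2, 3, 5 and 8, and 0.246, 0.331, 0.332 and 0.321 in testosterone animals 2, 4, 6 and 8. It had 0.219, 0.234, 0.165 and 0.309 in vehicle animals 3, 4, 5 and 8. Vehicle animal 8 lay within the range of both hormone groups, so all groups overlapped. The log2 differences of Cd3d were 0.48 ± 0.22 for estradiol benzoate and 0.43 ± 0.22 for testosterone (limma, adjusted p = 0.370 and 0.399). Without estradiol benzoate animal 5 the first was 0.32, and without vehicle animal 5 the second was 0.28. The AB arrays alone gave 0.28 for estradiol benzoate and 0.21 for testosterone. Lck, the kinase that CD8 carries to the receptor, differed by 0.31 (estradiol benzoate) and 0.37 (testosterone). For Lck the estradiol benzoate difference was 0.15 without estradiol benzoate animal 5 and 0.19 without vehicle animal 8, and the testosterone difference was 0.21 without testosterone animal 4. Cd4, the coreceptor of helper T cells, differed by 0.44 (estradiol benzoate) and 0.25 (testosterone) (SE 0.37 each), and its testosterone difference was at or below 0 without vehicle animal 5 (-0.0047) and with the AA arrays alone (-0.10).

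Genes of killing by cytotoxic T and natural killer cells were measured by 14 probes of a list of 21. Of these, 13 had a higher mean in each hormone group, as did 47.6% of all tested probes with estradiol benzoate and 47.7% with testosterone. Of the 14, 0 passed the adjusted p, and the medians were 0.24 for estradiol benzoate and 0.23 for testosterone. At an unadjusted p under 0.05, 3 were higher with estradiol benzoate and 4 with testosterone, where 6.77% and 6.62% of all probes were. Klrd1, or CD94, a receptor of natural killer cells and some CD8 T cells, had 46.0% of the tested probes below it in intensity. It had an intensity of 1.86, 0.844, 0.917 and 0.986 in estradiol benzoate animals 2, 3, 5 and 8, and 1.26, 1.66, 0.530 and 0.617 in testosterone animals 2, 4, 6 and 8. It had 0.403, 0.618, 0.202 and 0.854 in vehicle animals 3, 4, 5 and 8. Vehicle animal 8 exceeded 1 estradiol benzoate animal and 2 testosterone animals. The log2 differences of Klrd1 were 1.26 ± 0.48 for estradiol benzoate and 1.00 ± 0.48 for testosterone (limma, adjusted p = 0.307 and 0.373), and the second was 0.61 without vehicle animal 5. Klrk1, the activating receptor NKG2D, differed by 0.43 (estradiol benzoate) and 0.50 (testosterone). Gzma, a granule protease, differed by 0.23 (estradiol benzoate) and 0.25 (testosterone), and Gzmk, another, differed by 0.26 (estradiol benzoate) and 0.39 (testosterone). Without vehicle animal 5, Gzmk differed by 0.064 (estradiol benzoate) and 0.20 (testosterone), and on the AA arrays alone by 0.012 and 0.26. Klrk1 with estradiol benzoate was 0.28 without vehicle animal 3, and Gzma with testosterone was 0.15 without testosterone animal 2.

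The summed intensity of the 10 T cell genes was 1.86 to 3.04 in estradiol benzoate animals, 1.87 to 2.37 in testosterone animals and 1.57 to 1.93 in vehicle animals. Vehicle animal 5 had the lowest sum and vehicle animal 8 the highest of its group. The mean log2 deviation of these 10 genes from their overall means weights the genes equally. It was -0.068 to 0.38 with estradiol benzoate, -0.015 to 0.23 with testosterone and -0.48 to -0.064 with vehicle. On this measure estradiol benzoate animal 2 lay just below vehicle animal 4, while the testosterone animals lay above the vehicle animals. For the 14 cytotoxic genes the sums were 3.45 to 4.13 with estradiol benzoate, 2.94 to 4.26 with testosterone and 2.33 to 3.14 with vehicle. Such sums weight the brightest genes, such as Klrd1. The mean log2 deviation of the 14 genes from their overall means was -0.058 to 0.26 with estradiol benzoate. It was -0.056 to 0.19 with testosterone and -0.44 to 0.087 with vehicle, so on this measure all groups overlapped. Without vehicle animal 5, 10 of the 10 T cell genes were higher with estradiol benzoate and 8 with testosterone, with medians of 0.34 (estradiol benzoate) and 0.25 (testosterone), and 12 of the 14 cytotoxic genes were higher in both comparisons. Among genes with a median intensity of at least 0.2, 3 of 3 T cell genes and 6 of 6 cytotoxic genes were higher in both comparisons. In whole arteries more T cells and more RNA of these genes per cell cannot be told apart.

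Partners of the 3 genes gave a mixed picture. The list of CCR7 ligands and lymphocyte homing genes had 6 of 21 measured, of which 3 were higher with each hormone, with medians of 0.04 (estradiol benzoate) and -0.01 (testosterone). Itgb7, an integrin chain used in homing to the gut, differed by 0.28 (estradiol benzoate) and 0.36 (testosterone). Genes of MHC class I presentation, the pathway that makes the ligand of CD8, had 4 of 8 higher with estradiol benzoate and 3 of 8 with testosterone, with medians of 0.03 (estradiol benzoate) and -0.09 (testosterone). Tap1, the peptide transporter, differed by 0.46 (estradiol benzoate) and 0.33 (testosterone). At an unadjusted p under 0.05 (limma), 1 gene of this list was higher and 0 were lower with estradiol benzoate. With testosterone 0 were higher and 2 were lower, where 6.62% and 7.43% of all probes were. These were Pdia3 (-0.22) and Psme1 (-0.25), which differed by -0.05 and -0.13 with estradiol benzoate. Genes of MHC class II presentation had 8 of 8 higher with estradiol benzoate and 4 of 8 with testosterone, with medians of 0.22 (estradiol benzoate) and 0.08 (testosterone), and RT1-Bb, a class II beta chain, differed by 0.75 (estradiol benzoate) and 0.90 (testosterone). Without vehicle animal 3, RT1-Bb differed by 0.44 (estradiol benzoate) and 0.59 (testosterone), and Itgb7 with estradiol benzoate was 0.18 without estradiol benzoate animal 8. None of the genes of these lists passed the adjusted p (limma) in either comparison.

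Other immune cells were measured alongside, because CD8 alpha and CCR7 are not limited to T cells. Dendritic cell genes had 6 of 10 higher with each hormone, with medians of 0.16 (estradiol benzoate) and 0.07 (testosterone), and Cd40, a receptor for T cell help, differed by 0.25 (estradiol benzoate) and 0.29 (testosterone). B cell genes had 3 of 4 higher with each hormone, with medians of 0.56 (estradiol benzoate) and 0.21 (testosterone), and Blk, a B cell kinase with only 7.25% of the tested probes below it, differed by 0.61 (estradiol benzoate) and 0.33 (testosterone). Macrophage and monocyte genes had 5 of 10 higher with estradiol benzoate and 2 of 10 with testosterone, with medians of -0.00 (estradiol benzoate) and -0.30 (testosterone). Of these, 4 were lower with testosterone at an unadjusted p under 0.05, where 7.43% of all probes were, and Tyrobp, an activating adaptor of myeloid and natural killer cells, differed by -0.26 (estradiol benzoate) and -0.49 (testosterone). The second value of Blk was 0.17 without testosterone animal 6, and the first value of Tyrobp was -0.14 when vehicle animal 5 was left out and -0.17 when estradiol benzoate animal 5 was. Of the thymocyte list 2 genes were measured, of which 1 was higher with estradiol benzoate and 2 with testosterone.

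**Figure D4:**
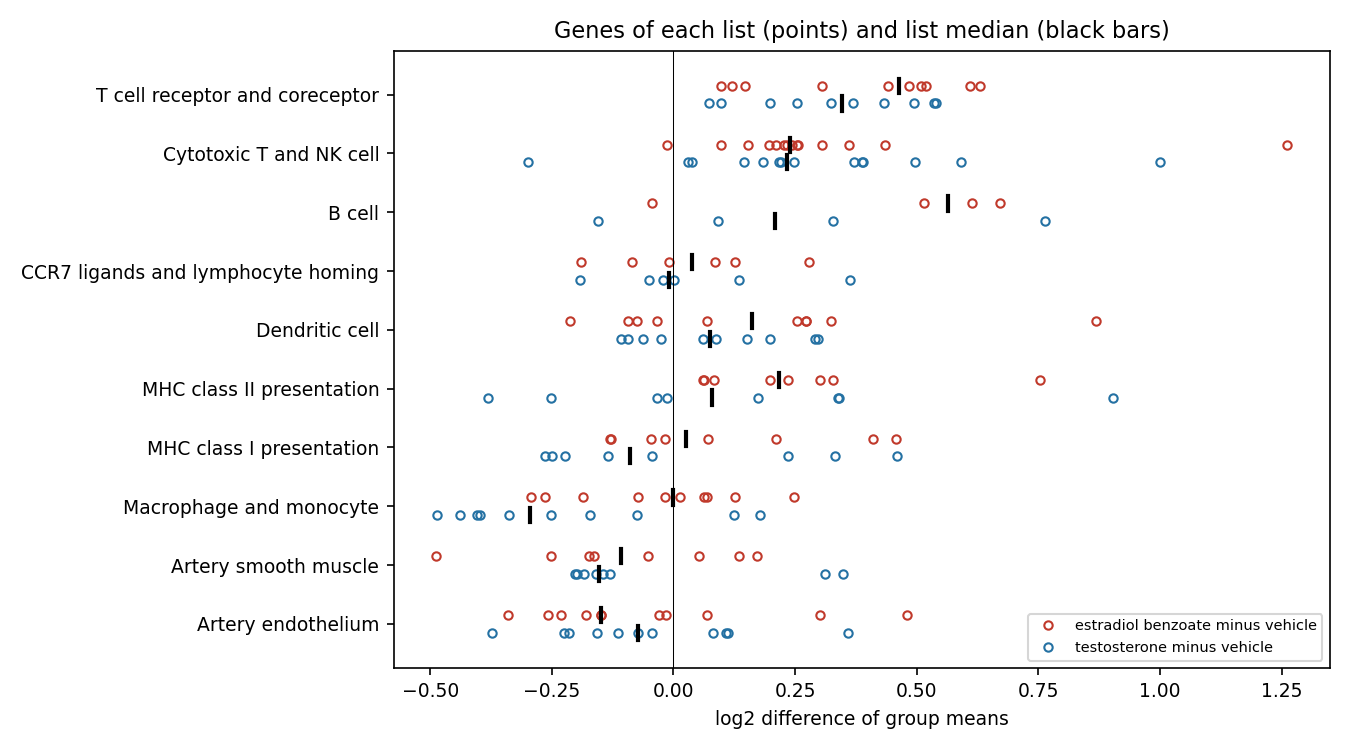
Log2 difference of group means (horizontal axis) of each measured gene in 10 gene lists (rows), as estradiol benzoate minus vehicle (red, upper) and testosterone minus vehicle (blue, lower). Black bars are the medians of the lists, and Cd8a, Cd8b and Ccr7 are not among the points. The T cell genes all lie to the right of 0, with medians of 0.46 (estradiol benzoate) and 0.35 (testosterone), while the macrophage and artery lists lie around or left of 0.

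The artery wall and neighbouring tissue were examined as well. Smooth muscle and endothelial genes were bright, with sums of 79.2 to 113 over 8 smooth muscle genes and 60.4 to 81.5 over 11 endothelial genes over the 12 animals, so the markers of the labelled tissue were present. Smooth muscle genes had medians of -0.11 (estradiol benzoate) and -0.15 (testosterone), and endothelial genes had medians of -0.15 (estradiol benzoate) and -0.07 (testosterone). Among them Rgs5, a signalling regulator of mural cells, differed by -0.49 (estradiol benzoate) and -0.20 (testosterone), and Sox17, an endothelial transcription factor, differed by -0.18 (estradiol benzoate) and -0.37 (testosterone). Without vehicle animal 5, Rgs5 with testosterone was -0.11 and Sox17 with estradiol benzoate was -0.094, and Rgs5 with testosterone was -0.10 without testosterone animal 8 and -0.32 without testosterone animal 4. White adipocyte genes had 13 of 15 higher in each comparison, with medians of 0.38 (estradiol benzoate) and 0.26 (testosterone), and 8 of them with estradiol benzoate and 4 with testosterone were higher at an unadjusted p under 0.05, where 6.77% and 6.62% of all probes were. Their summed intensity was 189 to 205 in estradiol benzoate animals, 163 to 208 in testosterone animals and 154 to 172 in vehicle animals, and Agpat2, an enzyme of triglyceride synthesis, differed by 0.41 (estradiol benzoate) and 0.52 (testosterone). Fat around these arteries contains lymphocytes and lymph nodes, and the part of adjoining fat in the T cell gene levels was not tested.

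Hepatocyte genes had 1 of 10 higher in each comparison, with medians of -1.11 (estradiol benzoate) and -1.60 (testosterone), and Fetub, a protein secreted by the liver, differed by -3.60 (estradiol benzoate) and -4.69 (testosterone). Pancreatic acinar genes had 10 of 11 higher with estradiol benzoate and 8 of 11 with testosterone, with medians of 2.85 (estradiol benzoate) and 0.32 (testosterone). Pnlip differed by 4.73 (estradiol benzoate) and 0.80 (testosterone), and Cela1 by 3.32 and 0.31. Spink1, an inhibitor of trypsin, was the 1 gene not higher with estradiol benzoate and differed by -0.29 (estradiol benzoate) and -0.42 (testosterone). The mean log2 deviation of the 11 genes was 5.78 in estradiol benzoate animal 3. It was -1.06, 0.32 and 1.83 in estradiol benzoate animals 2, 5 and 8. The 2 genes of the red cell and platelet list had medians of 0.03 (estradiol benzoate) and 0.33 (testosterone).

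Neighbouring genes with a probe were read beside the 3 genes. Krcc1, which precedes the pair, differed by -0.13 ± 0.13 (estradiol benzoate) and 0.00 ± 0.13 (testosterone) in log2 level. Rnf103, which follows, differed by -0.21 ± 0.19 (estradiol benzoate) and 0.13 ± 0.19 (testosterone), and Kdm3a, a histone demethylase further on, differed by 0.06 ± 0.17 (estradiol benzoate) and 0.09 ± 0.17 (testosterone). Fabp1, the liver fatty acid binding protein beyond Krcc1, differed by -3.58 ± 1.25 (estradiol benzoate) and -5.74 ± 1.25 (testosterone). Liver gene signal was highest in vehicle animal 5 (a sum of 35.5), and the part of liver tissue in the Fabp1 level was not tested. The gene after Ccr7, Smarce1, a subunit of a chromatin remodelling complex, differed by -0.22 ± 0.15 (estradiol benzoate) and -0.24 ± 0.15 (testosterone). Measured genes farther from Ccr7 were Rara, a retinoic acid receptor, 5 protein-coding genes before it, Rapgefl1, 8 before it, and Krt13, a keratin, 50 after it. Rara differed by 0.16 ± 0.16 (estradiol benzoate) and 0.01 ± 0.16 (testosterone), Rapgefl1 differed by -0.53 ± 0.26 (estradiol benzoate) and -0.27 ± 0.26 (testosterone), and Krt13 differed by 0.51 ± 0.44 (estradiol benzoate) and -0.20 ± 0.44 (testosterone).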

How the data were processed

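Per the labels, total RNA from the mesenteric arteries of 12 rats was made into labelled cRNA and hybridised to 24 one-colour arrays. The authors deposited spot intensity on a linear scale, with array medians just under 1; how they scaled it, corrected background and scanned is not given in the sources used here. Probe symbols came from the platform annotation, which names no genome build. Values at or below 0 (327) and blanks (152 to 665 per array) were missing. Log2 was taken without a pseudocount, and arrays AA and AB were averaged per animal. Where 1 array was blank, the other stood for the animal.

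Limma 3.58.1 under R 4.3.3 fitted 3 group means to the 12 animals (lmFit, eBayes, 9 residual degrees of freedom), with Benjamini-Hochberg adjustment over 10228 probes. Called means an adjusted p under 0.05. Replicates were separate animals, whose number limits the precision. The fit and the permutation test were tested on simulated data.

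The 3 genes and all lists were chosen with earlier results of these data known. The genes named were the 5 most like each of the 3, up to 4 per list with the smallest p, and neighbours in the RefSeq order. Alternatives are given in the closing section.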

Additional observations from a re-analysis of the deposited data

Results flagged for a closer look

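In 2 of 27 groups of 4 animals examined, 1 animal lay farther from its group than Dixon's 95% limit, where chance alone marks about 1 group in 20. The log2 level of Cd8b in vehicle animal 5 was -4.73, lower than in the other 3 vehicle animals, whose intensities were 0.055 to 0.0569 against 0.0378. The mean deviation of the pancreatic acinar genes from their overall means was -0.19 on the log2 scale in vehicle animal 8, higher than in the other vehicle animals, and this animal also had the highest Cd8a level of its group. The part of pancreas tissue in that level was not tested.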

How the results depend on the processing

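In 1302 alternative values, 1239 kept their direction and side of the threshold or their size. All 114 differences of Cd8a, Cd8b and Ccr7 against vehicle stayed positive, but these differences chose the genes. Several settings, such as an eBayes trend or only the 2 groups, could not change them, so nothing is read from that count. With log2(value + 0.1) the differences of the 3 genes were 0.25, 0.23 and 0.12 for estradiol benzoate and 0.21, 0.20 and 0.18 for testosterone in that gene order. The AB arrays alone gave 0.51 for Cd8a with estradiol benzoate. A median intensity of at least 0.2 removed all 3 genes, and left 3 and 3 T cell genes and 6 and 6 cytotoxic genes higher because fewer were tested. Each gene had 1 probe, so other probes could not be tried.

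Probes called for estradiol benzoate minus vehicle numbered 0, but 1 with AA arrays alone, 3 with the intensity minimum, 3 with an eBayes trend and 226 with 24 arrays as samples and the animal as a random block. For testosterone minus vehicle there were 5, but 3 with AA arrays, 8 with quantile normalization, 2 with the intensity minimum, 1 with only the 2 groups, 150 with the random block and 29 without estradiol benzoate animal 3 and vehicle animal 5. For estradiol benzoate minus testosterone there were 3, but 1 with AA arrays, 40 with the random block, and 0 with AB arrays, quantile normalization, only the 2 groups or without those 2 animals. Leaving out 1 animal at a time gave 0 to 2, 0 to 45 (the highest without vehicle animal 5) and 0 to 1 calls in these comparisons. The causes were not tested.

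Animal numbers shared between groups were not treated as pairs in the main fit. Deviations of same-numbered animals from their group means correlated at -0.06 to 0.12 for estradiol benzoate and vehicle. The correlations were -0.12 and 0.04 for testosterone and vehicle, and 0.30 and 0.04 for both hormones. Differently numbered animals were not compared, so these values do not decide whether the numbers mark pairs. With the number as a replicate block, 0 probes were called for testosterone minus vehicle and 0 for estradiol benzoate minus testosterone. The block gave 1.01, 0.72 and 0.92 for Cd8a, Cd8b and Ccr7 with estradiol benzoate, 0.60, 0.54 and 1.21 with testosterone, and turned Cd4 with testosterone to -0.40.

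Signs also turned for Lat with estradiol benzoate on AA arrays (-0.012), for Cd4 with testosterone on AA arrays (-0.10) and without vehicle animal 5, alone or with estradiol benzoate animal 3 (-0.0047 in both; -0.0047 to 0.56 with 1 animal left out), and for Cd8b between the hormones, which ran from -0.070 to 0.13 with 1 animal left out. Within groups, Cd8a with Ccr7 turned to -0.36 (AB arrays) and -0.14 (AA against AB), and Cd8b with Ccr7 to -0.024 and -0.053. Cd8a with Cd8b ran from 0.36 to 0.89 with 1 animal left out. The brightness of these dim probes limits every value above, and no background flag was used.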
